A study of Mus musculus with 23 samples.

Results

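FOS and JUN proteins pair through a leucine zipper to form AP-1, a transcription factor that binds DNA at the AP-1 site. FOS proteins (FOS, FOSB, FOSL1, FOSL2) need a JUN partner (JUN, JUNB, JUND) to bind, whereas JUN proteins can also pair with each other. Several of these genes are immediate early genes, whose mRNA appears within minutes of a stimulus because the factors that switch them on are already in the cell. In the striatum of animals lacking dopamine, LDOPA is known to induce FOS and FOSB, and a truncated, long-lived product of FOSB called deltaFosB is associated with dyskinesia.

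Of the 7 genes of the family, 5 were matched by their symbol in the deposited array report, with 8 probes, among 30854 symbols and 45281 probes on the array: FOS, FOSB and JUN with 1 probe each, JUNB with 2 and FOSL2 with 3. The symbol JUND had no row, but 1 probe listed under the older symbol JUND1 carries a RefSeq accession of Jund, so 9 probes of 6 genes are described. FOSL1 was not analysed here. The filter on dim probes kept 7 of the 9. No sequence of a probe was given, so the FOSB probe cannot be assigned to full-length FOSB mRNA or to that of deltaFosB.

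The samples were ribosome-bound mRNA (TRAP, translating ribosome affinity purification) from the striatum of 71-day-old Bac transgenic mice on a mixed C57BL/6J and Swiss-Webster background, each carrying EGFP-L10a, a tagged ribosomal protein, under the DRD1A promoter (line CP73, medium spiny neurons of the direct pathway) or the DRD2 promoter (line CP101, those of the indirect pathway). Each promoter was represented by 1 Bac line, and the DRD2 line is known to tag cholinergic interneurons as well. All mice, controls included, had a unilateral 6-OHDA lesion made at 35 days of age and received LDOPA methyl ester (6 mg/kg) with benserazide (15 mg/kg) on day 22, and the striatum of the lesioned side was taken 40 min later. Chronic LDOPA mice had received the same drugs 2 times a day for 21 days, and acute LDOPA mice had received vehicle. No group went without LDOPA, so a level at rest is not among these data. The labels read saline or L-Dopa, which by the study's protocol are acute and chronic LDOPA. By these labels there were 7 acute and 8 chronic LDOPA arrays of the DRD1A line and 4 of each treatment for the DRD2 line. They lay on 4 BeadChips, and the replicate names give the BeadChip and the position on it (1E is position E of BeadChip 1). The labels do not name the animals, so p-values measure the spread between these samples, and the number of arrays limits their precision.

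The arrays detected between 13114 and 17443 probes. DRD2 chronic arrays 1D and 3A were near-identical (r = 0.990 over the probes kept, where any other pair reached at most 0.928) and were averaged to 1 sample, leaving 22 samples with n = 7, 8, 4 and 3. The lines were told apart by their markers: after acute LDOPA 4 of 9 direct pathway markers were called higher in DRD1A and 3 of 5 indirect pathway markers lower, DRD2 among them, where 0.158% of all probes were called. After chronic LDOPA 0 of 9 and 1 of 5 (DRD2) were, where 0.0279% of all probes were. Sample 1A of the DRD2 chronic group stood apart from its label's pattern, with the lowest summed indirect pathway signal of the DRD2 samples (4895, against 7200 to 11494 in DRD2 acute LDOPA) and a DRD1A level of 9.28 on the log2 scale, against 7.12 and 8.50 in the other DRD2 chronic samples.

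Cells switch on FOS through cAMP response elements (CRE), bound by CREB, through a serum response element and from a core promoter with a TATA box. The 100 bases before the annotated start are shown for Fos, Fosb and Jun, the genes with the widest differences between the lines. They set genes with a match to the short motif TGACG close to the start (Fos and Fosb) beside one without that match (Jun). The sequences come from RefSeq (GRCm38.p6) and lie at chr12:85473790-85473889 on the plus strand for Fos, chr7:19310046-19310145 on the minus strand for Fosb and chr4:95052223-95052322 on the minus strand for Jun. Capitals mark the short CRE motif TGACG and the TATA box TATAAA.
Fos: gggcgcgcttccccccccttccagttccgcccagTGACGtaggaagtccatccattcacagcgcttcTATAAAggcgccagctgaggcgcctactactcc
Fosb: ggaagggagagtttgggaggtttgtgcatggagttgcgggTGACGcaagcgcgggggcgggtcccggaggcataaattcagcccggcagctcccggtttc
Jun: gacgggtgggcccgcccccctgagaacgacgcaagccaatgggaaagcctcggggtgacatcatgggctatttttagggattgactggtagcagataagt
The CRE motif begins 66 bases before the start in Fos, where a second one begins at 129, and 60 bases before it in Fosb. The TATA box of Fos begins 33 bases before the start. In windows from 250 bases before the start to 50 after it, searched on both strands, Fos held TGACG 2 times, Fosb and Junb 1 time each, and Jun, Fosl2 and Jund not at all, against 20.8% of 32851 promoters with at least 1 match. TATAAA was found in Fos and Junb, against 13.6% of promoters, but in Junb it begins at the annotated start and not before it. GGGCGG (GC box) was found in Fos, Fosb, Fosl2 and Jun, against 35.7%. Neither the full CRE TGACGTCA (1.79% of promoters), which contains the short motif, nor the AP-1 site TGANTCA (7.81%), nor the CArG box of the serum response element (1.63%) was found in the 6 windows, which says only that these letters are not in them. The Jun window holds tgacatca, a near variant of the full CRE that none of the searched motifs matches. The matches given are letters in the sequence and were not measured as binding.

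FOS, the founding member, had a higher mean in DRD1A than in DRD2 after both treatments, with no overlap of the lines after chronic LDOPA. After acute LDOPA its log2 normalized signal in DRD1A EGFP-L10a expressing MSNs was 8.29 in the lowest sample, 9.28 at the median and 10.45 in the highest, with a mean of 9.51 ± 0.76 (SD, n = 7). In DRD2 EGFP-L10a expressing MSNs it was 7.33, 7.95, 8.14 and 8.44, with a mean of 7.96 ± 0.47 (SD, n = 4). Of the 7 DRD1A samples, 6 lay above all DRD2 samples, and the exception was 1E, the lowest DRD1A sample. After chronic LDOPA FOS ran from 8.41 to 10.07 in DRD1A with a median of 9.15 (mean 9.12 ± 0.59, SD, n = 8), and it was 7.63 in 4A, 7.73 in the averaged arrays 1D and 3A and 8.31 in 1A in DRD2 (mean 7.89 ± 0.37, SD, n = 3). All 8 DRD1A chronic samples lay above all 3 DRD2 chronic samples.

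The difference between the lines in FOS was 1.55 on the log2 scale after acute LDOPA, or 2.92-fold (standard error 0.373, 95% interval 0.77 to 2.33), and it did not pass the test (limma, Benjamini-Hochberg adjusted p = 0.109 over 32255 probes). After chronic LDOPA it was 1.23, or 2.35-fold (standard error 0.403, 95% interval 0.39 to 2.07, adjusted p = 0.518). For comparison, 0.158% of all probes were called after acute and 0.0279% after chronic LDOPA, and DRD1A samples lay above all DRD2 samples for 0.784% and 0.992% of probes. By its unadjusted p, FOS ranked 155 of 32255 probes after acute LDOPA and 395 after chronic LDOPA. Within BeadChips the acute difference was 0.99, 3.11 and 1.10 on BeadChips 2, 3 and 4, and the chronic difference 1.34 and 1.35 on BeadChips 3 and 4. Here and for the other genes, each such value rests on 1 or 2 DRD2 samples and, after acute LDOPA, on 1 DRD1A sample. Without the DRD1A acute sample 1E the acute difference was 1.75 and passed (adjusted p = 0.0461). The adjusted p of the acute difference ran from 0.0461 to 0.315 over all alternatives. Sample 1E also had the highest DRD1A level of its group, 10.11 on the log2 scale. Samples 1A and 2C had the highest DRD1A levels of the DRD2 chronic and DRD2 acute groups (9.28 and 8.42). Without them the FOS difference was 1.60 after acute and 1.44 after chronic LDOPA. The DRD2 chronic sample 4A, with a DRD1A level of 8.50, was kept.

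FOSB, which competes with FOS for JUN partners, showed the same order of lines after acute LDOPA and the widest spread of the family after chronic LDOPA. After acute LDOPA its log2 normalized signal in DRD1A was 8.69 in 1E, the lowest, 10.02 at the median and 10.32 in the highest sample (mean 9.83 ± 0.59, SD, n = 7). In DRD2 it was 7.87, 8.21, 8.22 and 8.27 (mean 8.14 ± 0.18, SD, n = 4). All 7 DRD1A samples lay above all 4 DRD2 samples, and the difference was 1.69 on the log2 scale, or 3.22-fold (standard error 0.433, 95% interval 0.78 to 2.59, limma adjusted p = 0.145). Within BeadChips 2, 3 and 4 it was 1.90, 2.05 and 1.81, each with 1 DRD1A sample.

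After chronic LDOPA the FOSB signal in DRD1A ran from 7.64 to 10.29 with a median of 8.74 (mean 8.83 ± 0.97, SD, n = 8), and in DRD2 it was 7.48 in 4A, 7.83 in the averaged arrays and 8.32 in 1A (mean 7.88 ± 0.42, SD, n = 3). Here 5 of the 8 DRD1A samples lay above all DRD2 samples and the groups overlapped. The difference between the lines was 0.96 (standard error 0.467, 95% interval -0.02 to 1.93, limma adjusted p = 0.830), and 1.18 without 1A and 2C.

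**Figure D1:**
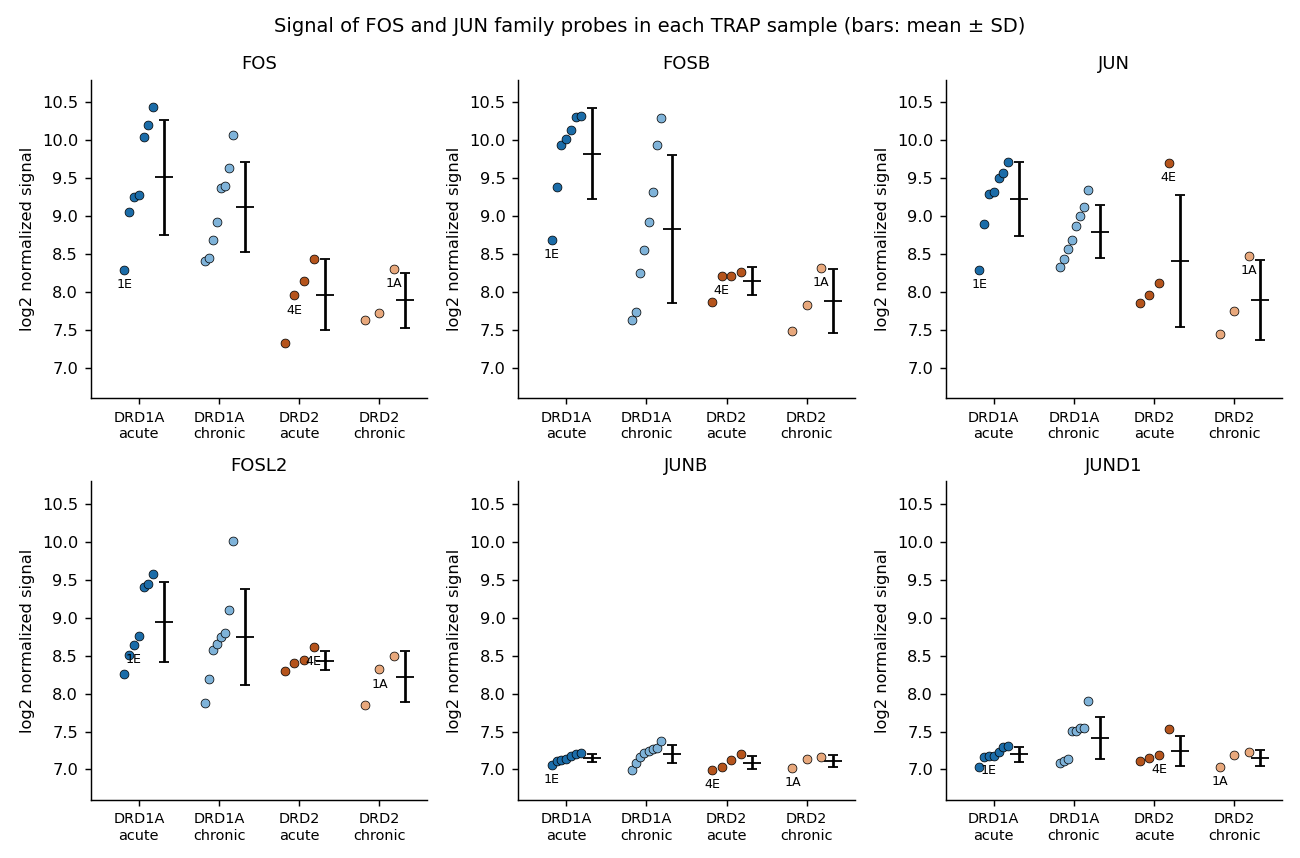
Log2 normalized signal (y axis) of the brightest probe of each gene in every sample of the 4 groups (x axis), with points for samples and bars for the mean ± SD beside them (1E, 4E and 1A are labelled under their points). FOS and FOSB lie higher in most DRD1A samples than in the DRD2 samples, 4E stands alone in JUN at 9.70, and JUNB and JUND1 stay near background.

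JUN, the main partner of FOS, had log2 normalized signals in DRD1A of 8.29 (1E) to 9.72 after acute LDOPA, with a median of 9.32 (mean 9.23 ± 0.49, SD, n = 7). In DRD2 acute LDOPA samples it was 7.85, 7.95 and 8.12, and 9.70 in 4E, which stood far from the other 3 (mean 8.41 ± 0.87, SD, n = 4). The groups overlapped only through 4E. The difference was 0.82 (standard error 0.323, limma adjusted p = 0.428) with 4E and 1.26 without it (adjusted p = 0.0684). After chronic LDOPA JUN ran from 8.33 to 9.34 in DRD1A (median 8.78, mean 8.80 ± 0.35, SD, n = 8) and was 7.45 in 4A, 7.75 in the averaged arrays and 8.48 in 1A in DRD2 (mean 7.89 ± 0.53, SD, n = 3). Of the 8 DRD1A samples, 6 lay above all DRD2 samples, and the difference was 0.91, or 1.87-fold (standard error 0.349, adjusted p = 0.658). Within BeadChips the JUN difference was 0.87, 1.72 and -0.41 after acute LDOPA (BeadChips 2, 3 and 4, the last holding 4E) and 1.04 and 1.34 after chronic LDOPA (BeadChips 3 and 4).

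FOSL2 (FRA2), a FOS protein without the activation domain of FOS, was measured by 3 probes that differed in brightness. The brightest probe, 7400044, was detected on 23 of 23 arrays, with log2 normalized signals in DRD1A of 8.25 to 9.58 after acute LDOPA (mean 8.94 ± 0.53, SD, n = 7) and 7.87 to 10.01 after chronic LDOPA (mean 8.75 ± 0.64, SD, n = 8). The DRD2 samples ran from 8.30 to 8.61 (mean 8.44 ± 0.13, SD, n = 4) and from 7.85 to 8.50 (mean 8.22 ± 0.34, SD, n = 3), inside the range of DRD1A in the first case and overlapping it in the second. The differences between the lines were 0.51 (standard error 0.312, limma adjusted p = 0.670) and 0.52 (standard error 0.337, adjusted p = 0.940). Within BeadChips they were uneven, at 0.08, 1.28 and 0.15 after acute and 1.33 and -0.10 after chronic LDOPA. Probe 2260484, detected on 15 of 23 arrays, had group means between 7.23 and 7.39. Probe 3520520 did not pass the filter. It was detected on 3 of 7 DRD1A acute arrays (8.57 in 1F, 8.41 in 3B and 7.42 in 4B) and on none of the 4 DRD2 acute arrays. Its DRD1A acute mean of 7.52 was at least 1.20-fold higher, against a bound of 7.26 from the lowest signal detected on each array (with no test). The DRD1A acute median was 7.18, below that bound, so this fold describes the mean and not most of the samples. The 3 probes share 1 RefSeq accession and give different pictures of 1 gene.

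JUNB and JUND were at the limit of detection. The brighter JUNB probe, 3120014, was detected on 1 of 7 DRD1A acute and 5 of 8 DRD1A chronic arrays and on none of the 8 DRD2 arrays, with group means between 7.09 and 7.20 on the log2 scale, and its DRD1A mean did not exceed the lowest detected signal of the DRD2 arrays, so no fold is given. The other probe listed under JUNB, 1340187, was not matched to a RefSeq gene and was not well above background on any of the 23 arrays. The JUND1 probe, 4390050, was detected on 11 of 23 arrays, 5 of them DRD1A chronic, with group means between 7.15 and 7.42, the highest in DRD1A chronic LDOPA. No difference of the JUNB or JUND1 probe tested was called. In tissue, JUND mRNA is known to be present without stimulation, and its level is not set here against that of FOS or JUN, since levels of different probes cannot be compared.

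Read as a group, 3 of the 7 probes tested (FOS, FOSB and JUN) had an unadjusted p under 0.05 with a higher mean in DRD1A after acute LDOPA, where 3.76% of all probes did, and 2 of 7 (FOS and JUN) after chronic LDOPA, where 2.47% did. None was called in any of the 5 comparisons. The median difference of the 7 probes was 0.51 after acute and 0.52 after chronic LDOPA, beside -0.01 and 0.01 over all probes.

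**Figure D2:**
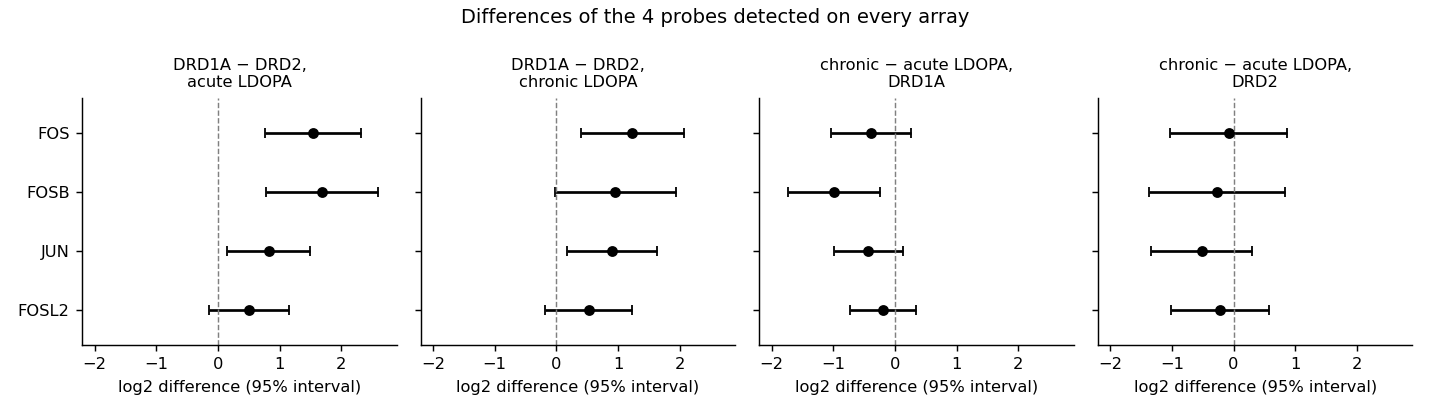
Log2 differences (x axis) with 95% intervals from limma for the 4 genes detected on every array (y axis), between the lines after each treatment and between treatments within each line. The intervals of FOS and JUN lie above 0 between the lines after both treatments, and that of FOSB lies below 0 for chronic minus acute LDOPA in DRD1A, from -1.74 to -0.25.

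Markers of other cells differed between the same groups. The summed signal of 3 cortical excitatory neuron markers (SLC17A7, TBR1 and NEUROD6, each detected on 20 or more of the 23 arrays) ran from 1654 to 2584 in DRD1A acute and from 558 to 1302 in DRD2 acute samples, and from 1452 to 2260 and 528 to 2106 after chronic LDOPA, with 1A the highest DRD2 sample. All 3 had a positive difference after acute LDOPA and none was called, the widest being that of NEUROD6 (1.87, limma adjusted p = 0.0601). The sum of 4 GABAergic interneuron markers ran from 1156 to 1673 in DRD1A acute and from 954 to 1021 in DRD2 acute samples, and after chronic LDOPA, where the lines overlapped, from 881 to 2096 and from 982 to 1750. That of 9 markers of all MSNs ran from 9540 to 14223 in DRD1A and from 16441 to 20473 in DRD2 after acute, and from 9945 to 15901 and from 15507 to 21014 after chronic LDOPA. Their part in the FOS, FOSB and JUN differences was not tested. Of 5 cholinergic interneuron markers, 4 (CHAT, SLC18A3, LHX8 and GBX2) were detected on at most 4 of 23 arrays and SLC5A7 on 6. No gene of the cholinergic, astrocyte, oligodendrocyte, microglia or endothelial lists was called in any of the 5 comparisons, which does not show equal levels. The 6 oligodendrocyte markers had a median difference between the lines of -0.48 after acute LDOPA (4 negative and 2 positive). After chronic LDOPA it was -0.54, with all 6 negative. The part of these markers in the member differences was not tested either. In these bulk samples fewer cells of a type and less RNA per cell cannot be told apart.

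Chronic LDOPA was compared with acute LDOPA in each line to ask whether levels after the last dose differ with 21 days of treatment before it. In DRD1A EGFP-L10a expressing MSNs the FOSB mean was 9.83 after acute and 8.83 after chronic LDOPA, and 4 of the 8 chronic samples (2A, 2E, 3D and 4D) lay below all 7 acute samples. The difference was -0.99 on the log2 scale (standard error 0.357, 95% interval -1.74 to -0.25, limma adjusted p = 0.462) and did not pass. Of the 7 probes tested none was called, where 0.0341% of all probes were, and 2 had an unadjusted p under 0.05, FOSB with a lower and JUND1 with a higher chronic mean (by 0.22, adjusted p = 0.636, and by 0.68 with neqc background correction), where 7.8% of all probes did. Within BeadChips 2, 3 and 4 the FOSB difference was -1.79, -1.36 and -0.85, each against 1 acute sample. FOS differed by -0.39 (standard error 0.308, adjusted p = 0.803), JUN by -0.43 (standard error 0.267, adjusted p = 0.730) and FOSL2 by -0.20 (standard error 0.258, adjusted p = 0.903). For these 3 genes the groups overlapped, and within BeadChips 2, 3 and 4 the FOS difference was 0.11, -1.36 and -0.08. With median centering the FOS difference was -0.02 and the JUN difference -0.10. BeadChip 1 held 4 of the 7 DRD1A acute arrays and no DRD1A chronic array. It also held 2 of the 4 DRD2 chronic arrays and no DRD2 acute array, so the comparisons between the lines were unbalanced over it too.

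In DRD2 EGFP-L10a expressing MSNs the differences between chronic and acute LDOPA were -0.08 for FOS (standard error 0.454), -0.26 for FOSB (0.527), -0.52 for JUN (0.393) and -0.21 for FOSL2 (0.380), with limma adjusted p between 0.890 and 0.994 over the 7 probes. With 4 and 3 samples the 95% interval for FOS ran from -1.03 to 0.87. For JUN, the difference rests on 4E, without which it was -0.08: within BeadChip 4, which holds it, 4A lay below 4E by 2.26 (a difference of -2.26), and within BeadChip 3 the difference was -0.07. Of all probes, 0.0031% were called, and 6.28% had an unadjusted p under 0.05, as none of the 7 member probes did.

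The change in DRD1A minus the change in DRD2 was -0.31 for FOS (standard error 0.549, limma adjusted p = 0.948), -0.73 for FOSB (standard error 0.637, 95% interval -2.06 to 0.60, adjusted p = 0.906), 0.08 for JUN and 0.02 for FOSL2. No probe on the array was called in this comparison (0% of 32255, with 5.57% at an unadjusted p under 0.05), and a difference between the lines in their response to treatment was not shown for any member.

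Within the DRD1A groups, the correlation coefficients of FOS with the other members differed in sign. FOS and FOSB had a positive correlation in DRD1A acute LDOPA (Pearson r = 0.868, exact permutation p = 0.00437, Spearman rho = 0.857, exact p = 0.0238, n = 7). In DRD1A chronic LDOPA the coefficient was negative (r = -0.365, exact permutation p = 0.366, rho = -0.286, n = 8). There, 3C and 4C had the highest FOSB (10.29 and 9.94) with FOS at 8.69 and 8.45, and 3D had the lowest FOSB (7.64) with FOS at 9.63, the next to highest. FOS and JUN had a positive correlation in both groups, with r = 0.824 (exact permutation p = 0.0159, rho = 0.786, n = 7) and r = 0.737 (exact permutation p = 0.0415, rho = 0.714, n = 8). For FOS and FOSL2 it was r = 0.795 in the acute group (exact permutation p = 0.0429, rho = 0.679, n = 7) and r = -0.03 in the chronic group. FOS was set against 5 other genes in 2 groups, so 10 pairs gave 20 coefficients, and none had a Benjamini-Hochberg adjusted p under 0.05, the lowest being 0.0873 for r of FOS and FOSB in the acute group. All tests were two-sided. Without 1E and 3B, farthest from the FOS median, the acute r was 0.635 with FOSB, 0.532 with JUN and 0.874 with FOSL2. Leaving out the farthest samples narrows the range of FOS, which by itself can change r, so dependence on those samples was not shown. Without 4D and 4F the chronic r was -0.927 with FOSB and 0.439 with JUN (n = 6). The difference between the groups in r was not tested.

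**Figure D3:**
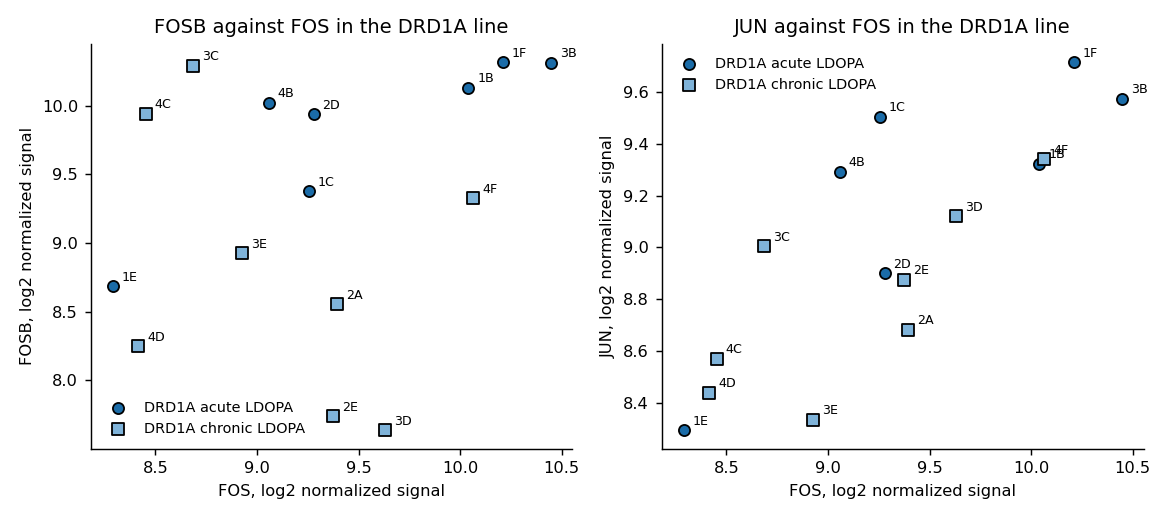
Log2 normalized signal of FOSB (left) and JUN (right) against FOS in each DRD1A sample, circles for acute and squares for chronic LDOPA, labelled by BeadChip and position. For FOSB, r was 0.868 among the acute and -0.365 among the chronic samples, and for JUN 0.824 and 0.737, with no adjusted p under 0.05 and no test of the difference between groups.

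Over all 22 samples, the 10 named genes most like FOS by Pearson r were EGR1 (0.895), GADD45G (0.888), EGR4 (0.826), EGR2 (0.825), WRN (0.798), YWHAH (0.788), NR4A1 (0.782), BTG2 (0.782), TNNT1 (0.780) and ARC (0.759), among 32255 probes. EGR1, EGR2, EGR4 and NR4A1 encode activity-induced transcription factors and ARC a synaptic protein, and 7 of the 10 are in the list of other immediate early genes. JUN ranked 15 of 32255 probes with r = 0.754 (FOS itself ranking 1), FOSB 123 with r = 0.590 and the bright FOSL2 probe 226 with r = 0.545. These values include the difference between the lines. For deviations from the group means, the closest genes were V1RD19 (r = 0.819), WRN (0.799), EGR1 (0.742), PCDHB21 (0.737) and TMEM25 (0.720), followed by GADD45G, GLIPR1, XPR1, TLX1 and LRRN2 (0.713 to 0.686). There JUN ranked 177 and FOSB, with r = 0.136, ranked 9679. All of these are descriptions over 22 samples on 4 BeadChips.

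Other immediate early genes, like FOS, mostly had higher means in DRD1A, and few passed the test. Of 23 listed genes, 20 were on the array and 18 tested. After acute LDOPA 17 of the 18 had a positive difference (median 0.80), 10 had a higher mean in DRD1A at an unadjusted p under 0.05 and 2 were called, GADD45G, a stress-response gene (difference 1.92, standard error 0.312, limma adjusted p = 0.0159), and DUSP1, a phosphatase that switches off MAP kinases (1.88, standard error 0.372, adjusted p = 0.0431). The median over all probes was -0.01, 3.76% of them were higher at an unadjusted p under 0.05 and 0.158% were called. GADD45G lost its call without 3F (adjusted p = 0.0600), with the BeadChip as a block and with median centering, and DUSP1 lost its call in 16 of 24 omissions of a single array or of the near-identical pair and in 6 of 11 other alternatives, the BeadChip as a block among them. After chronic LDOPA 16 of 18 had a positive difference (median 0.70), 10 were higher at an unadjusted p under 0.05 (2.47% of all probes) and none was called (0.0279% of all probes), with EGR2 at 1.53 (standard error 0.410, adjusted p = 0.312) and GADD45G at 1.30 (standard error 0.337, adjusted p = 0.292). EGR1 differed by 0.82 and 0.65 between the lines after acute and chronic LDOPA and ARC by 1.72 and 0.85. HOMER1, which has a short activity-induced form, had differences of -0.58 and -0.24. Between chronic and acute LDOPA none was called in either line.

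**Figure D4:**
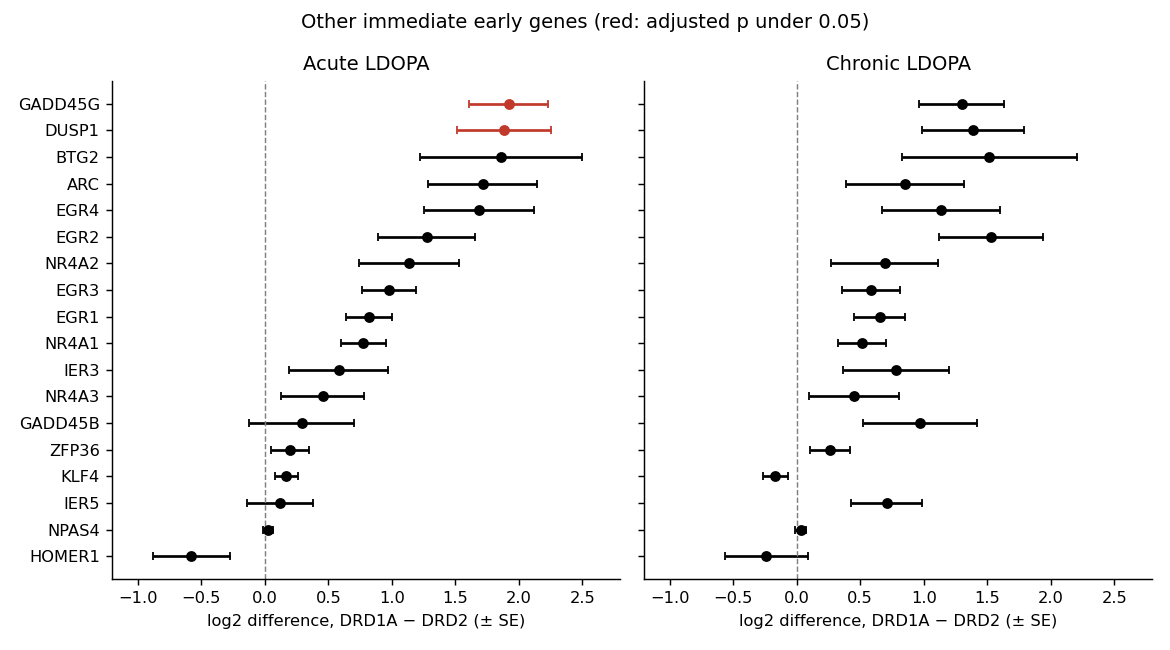
Log2 difference between DRD1A and DRD2 (x axis, bars ± SE from limma) for 18 other immediate early genes (y axis) after acute and chronic LDOPA, in red where the adjusted p was under 0.05. Nearly all lie above 0 after both treatments, and only GADD45G and DUSP1 passed, after acute LDOPA.

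Genes that act with or on the family had few calls. Of 14 bZIP partners, which join FOS or JUN in other dimers, 11 were tested and none was called in any comparison, and the widest differences between the lines were those of ATF4 (0.48 after acute LDOPA, adjusted p = 0.388) and ATF2 (-0.47 after chronic LDOPA, adjusted p = 0.926). Of 23 kinases and factors upstream of FOS and JUN, 22 were tested. None was called between the lines, the nearest being MAP2K1, an ERK kinase, at 0.60 after acute LDOPA (standard error 0.135, adjusted p = 0.0879). One was called between treatments: CREB1, which binds the CRE, fell by 1.05 on the log2 scale after chronic LDOPA in DRD1A (standard error 0.157, limma adjusted p = 0.0193). That call was lost with the BeadChip as a block, without BeadChip 1, with median centering, and without 3D or without 3E (adjusted p up to 0.0549 without 1 array). In DRD2 the CREB1 difference was -0.67 (standard error 0.232, limma adjusted p = 0.680) and was not called. The change in DRD1A minus that in DRD2 was -0.38 for CREB1 (limma adjusted p = 0.903), so a fall particular to DRD1A was not shown. None of 8 genes for the turnover of FOS and JUN mRNA and protein was called, with HNRNPD, an AU-rich element binding protein, at -0.75 between the lines after chronic LDOPA (adjusted p = 0.750).

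Of 7 genes described as AP-1 or deltaFosB targets in the striatum, 6 were tested and PDYN, the dynorphin precursor, was called. It was higher in DRD1A after acute LDOPA by 2.79 (standard error 0.286, limma adjusted p = 0.000102). It rose with chronic LDOPA by 1.41 in DRD1A (standard error 0.236, adjusted p = 0.0388) and by 2.45 in DRD2 (standard error 0.348, adjusted p = 0.0308). In the same samples the FOSB mean was 8.83 after 9.83 in DRD1A and 7.88 after 8.14 in DRD2, and neither FOSB change was called. A relation between FOSB and PDYN was not tested, and the FOSB probe cannot be assigned to deltaFosB. Each of the 2 changes with treatment lost its call in 13 of 24 omissions, without BeadChip 1 and without 1A and 2C together. The change in DRD1A also lost it with neqc background correction and with no filter, and the change in DRD2 with the BeadChip as a block (adjusted p = 0.341). The other 5 genes tested had no call, GRIA2 being lowest in p between the lines (-0.72 after chronic LDOPA, adjusted p = 0.407).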

How the data were processed

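The deposited intensity values are mean bead signals per probe, which the authors exported from GenomeStudio without normalization or background subtraction. The deposited detection p-values set each probe against negative control probes of its array, and the deposited report gives other bead statistics. Each signal of FOS, FOSB or JUN was a mean over 28 to 55 beads. The deposited series table holds log2 values that the authors quantile normalized, and was used as an alternative only. An aligner or genome build is not given in the sources used here. The 4 columns of an array with no listed sample were not used.

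After quantile normalization, signals under 1 were set to 1 and log2 was taken. Probes had to exceed the 20th percentile in all arrays of 1 or more groups, which 32255 of 45281 did. With limma 3.58.1 (R 4.3.3), 4 group means were fitted to 22 samples and 5 contrasts taken, adjusted by Benjamini-Hochberg over all probes kept, and called under 0.05. The moderated test had 19.4 degrees of freedom. A probe was called detected at a detection p under 0.05. A gene's main probe was the brightest. Probes were named by the symbols of the report. Correlations used exact permutations (Python, numpy). Sequences and motif matches came from RefSeq promoters, 1 for each of the 6 genes.

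The named genes were all probes of the members, every called gene of a list, otherwise those with the widest difference between the lines, and the 10 genes most like FOS. The members, lists and tests were chosen with earlier results of these data known. The lists held other immediate early genes, bZIP partners, upstream kinases and factors, turnover genes, AP-1 targets, and markers of MSNs (direct, indirect, both), interneurons (GABAergic, cholinergic), cortical neurons, glia (microglia, astrocytes, oligodendrocytes) and endothelium. An item of the marker lists is not reported here. The written design names the averaged pair 1D and 4A under another numbering of the BeadChips, and by the numbering used here it is 1D and 3A. The study's methods give the sizes of the DRD2 acute and DRD1A chronic groups exchanged relative to the labels, and the labels were used. On the log2 scale DRD2 lay between 7.11 and 7.76 in all samples labelled DRD1A and between 9.95 and 11.46 in those labelled DRD2.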

Additional observations from a re-analysis of the deposited data

Results flagged for a closer look

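Each group of 4 or more samples was examined for a sample far from the others in each of the 9 probes, 27 groups of a probe in all, and chance alone would mark about 1 in 20. The marked samples were 3. In DRD2 acute LDOPA, sample 4E had a JUN level of 9.70 on the log2 scale, and the nearest of the other 3 was at 8.12. Also in DRD2 acute LDOPA, sample 2C had a FOSB level of 7.87, below the other 3, which lay between 8.21 and 8.27. In DRD1A acute LDOPA, sample 1F had a level of 7.18 for probe 1340187, listed under JUNB, with the next sample at 7.06. This probe was not matched to a RefSeq gene and was not well above background on any array.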

How the results depend on the processing

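The 20 differences of FOS, FOSB, JUN and the bright FOSL2 probe were recomputed under 12 alternatives and 24 omissions of a single array or of the near-identical pair, and 693 of 716 values kept their sign and their side of the threshold. The only member difference that passed in any of them was FOS after acute LDOPA, without 1E. Its range over the omissions was 1.33 to 1.75. The signs that turned were those of 5 differences with values from -0.21 to 0.08. FOS between treatments in DRD2 was 0.043 with the BeadChip as a block and 0.12 with median centering, and -0.29 to 0.080 over the omissions. FOSL2 between treatments was 0.097 in DRD1A and 0.016 in DRD2 with median centering. The change in DRD1A minus that in DRD2 for FOSL2 was -0.017 with the BeadChip as a block, -0.00398 without BeadChip 1 and -0.021 with array weights, and -0.17 to 0.16 over the omissions, and for JUN -0.35 to 0.37.

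The background correction moved sizes: with neqc the FOS difference was 2.31 after acute and 1.91 after chronic LDOPA, against 1.55 and 1.23.

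Between the lines after acute LDOPA the number of probes called was 51, and 14 with the BeadChip as a block, 17 without BeadChip 1, 7 with median centering, 30 with one-way ANOVA and Tukey's test, 21 with array weights and 22 (without 2F) to 93 (without 2C) over the omissions. After chronic LDOPA it was 9, and 49 with 23 arrays as separate samples, 31 with median centering, 14 with neqc, 27 with ANOVA and Tukey's test, 27 with array weights and 8 to 44 (without 4A) over the omissions. Between treatments in DRD1A it was 11, and 0 without BeadChip 1, 247 with median centering (241 higher and 6 lower, against 7 and 4), 5 with no filter, 17 with only probes detected on at least 3 arrays and 1 (without 3D) to 18 (without 4A) over the omissions. In DRD2 it was 1, and 2 with 23 arrays, 0 with the BeadChip as a block, 3 with only detected probes, 9 with ANOVA and Tukey's test and 0 to 13 (without 4A) over the omissions. For the change in DRD1A minus that in DRD2 it was 0, and 0 to 7 (without 4A) over the omissions. The split between higher and lower after chronic LDOPA was 15 and 16 with median centering, against 6 and 3. Chosen after seeing the data, leaving out 1A and 2C together gave 96, 15, 4, 2 and 1 probes, and averaging 1D with 4A in place of 3A gave 56, 24, 15 and 3 for all but the acute comparison of the lines. The cause of these shifts was not tested. The labels give the groups no shared replicate number, and the only matched fit was the one with the BeadChip as a block.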
